A study of Homo sapiens with 5 samples.

Results

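FGF2, FGFR1 and SFRP2 were followed at their poly(A) sites in H9 human embryonic stem cells with edited CFIm25. All rows of the site table that carried one of these 3 gene names were taken, which gave 15 of 29996 sites in 3 of 12693 genes: 5 sites for FGF2, 7 for FGFR1 and 3 for SFRP2. The genes were selected with their measured levels in these same libraries known, that is, they were chosen by their gene level in CFIm25 KO against control, and their differences in level are given as a description, with no p-value. H9 is an established line, and it was grown in mTeSR, a defined medium, on Matrigel without further treatment. Poly(A)+ RNA was sequenced from its 3' end in 2 control libraries, whose cells had received an empty CRISPR-Cas9 vector (labelled genotype control KO), and in 3 CFIm25 KO libraries, whose cells were edited with guides against the CFIm25 gene. Per the study, every line was a single-cell clone picked after puromycin selection, and the edited clones carried short deletions near the start codon with a residual amount of CFIm25 protein, so that KO is used here as a label. Each p-value thus stands for the spread among clones.

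FGF2 is a secreted fibroblast growth factor that keeps human embryonic stem cells undifferentiated, and media for these cells, mTeSR among them, contain it as an added protein. FGFR1 is the receptor tyrosine kinase through which FGF2 acts in these cells, with heparan sulfate chains as coreceptor, and it passes the signal through RAS to the ERK kinases. SFRP2 is a secreted protein with a Frizzled-like domain that binds WNT proteins and modulates their signalling. NUDT21 encodes CFIm25, which recognises UGUA in the RNA upstream of a poly(A) site as a part of cleavage factor I, so that a gene with several sites can end its transcripts at different places when CFIm25 is scarce.

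FGF2 lies on the plus strand and SFRP2 on the minus strand of chromosome 4, and the 30 bases that end 6 bases before each of their 3' UTR sites are shown here, because this is where the poly(A) signal sits and because the findings turn on the choice between these sites. The hexamer in capitals is the first found when AATAAA, then ATTAAA, then AGTAAA and last TATAAA were searched on the RNA's own strand, written as DNA. Positions are GRCh38. The letters come from GENCODE transcripts ENST00000644866 of FGF2 and ENST00000274063 of SFRP2, in which a site was placed by its distance from the gene end, since both genes had the same length in the RefSeq GRCh38 table and in the GENCODE annotation (71555 and 8493 bases).
FGF2 site 1 (122892495): atgagagtaaaagaaAATAAAtgtgtatag
FGF2 site 2 (122892574): gtaaccattgtcccAGTAAAgaaaaataac
FGF2 site 3 (122893357): caaaacattaccctaacaaAGTAAAgtttt
FGF2 site 4 (122895463): taatagaattagattgaAATAAAatataat
FGF2 site 5 (122898223): catgagtagtatgAATAAAattgattagtt
SFRP2 site 3 (153781178): caaactAATAAAatcatgaatatttttatg
SFRP2 site 4 (153780592): tattcttgtaTATAAActttacatcctgtt

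Sites 1, 4 and 5 of FGF2 and the proximal site 3 of SFRP2 had the canonical AATAAA, which 59.6% of 10670 protein-coding transcript ends held in the same window. FGF2 sites 2 and 3 had only AGTAAA, the first match at 2.73% of those ends, and the last site of SFRP2 had only TATAAA, the first match at 2.34%. The motif TGTA, which is UGUA in RNA, was counted on the RNA strand in the 100 bases before each site. It occurred 4 times before FGF2 site 5 and 3 times before SFRP2 site 4, the last sites of their genes, and once before FGF2 site 1 and once before SFRP2 site 3, their main proximal sites. FGF2 sites 2 and 3 had 2 each and site 4 had 0. Of the 10670 transcript ends, 55.6% held at least 1 TGTA and 21.7% at least 2. These matches describe the letters only.

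The libraries held between 5203908 and 7783102 reads in the table. The gene level is the sum of the reads over all sites named for a gene, in CPM (counts scaled to a common library size) after TMM scaling. NUDT21 itself had 223.0 and 221.6 CPM in control and 130.5, 128.7 and 133.1 CPM in CFIm25 KO, and it was called lower, by a log2 fold change of -0.77 (SE 0.112, edgeR quasi-likelihood adjusted p = 0.0324). The edited stretch is not read by its 3' tags, so this level is no check of the edit. Of 11841 genes tested, 7 were called at an adjusted p under 0.05 (0.0591%), 2 higher and 5 lower. The number was 2, 3 and 12 without control 2, CFIm25 KO 1 and CFIm25 KO 2, and 123 without CFIm25 KO 3.

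FGF2 was lower in every CFIm25 KO library than in either control. Its level was 84.4 and 78.3 CPM in control (405 and 367 reads) and 73.3, 42.6 and 40.0 CPM in CFIm25 KO 1, 2 and 3 (522, 260 and 199 reads). The groups did not overlap, but CFIm25 KO 1 lay close below the controls, at 90.1% of their mean, and the other edited clones at 52.4% and 49.2%. The means were 81.4 ± 4.29 CPM (SD, n = 2) and 52.0 ± 18.5 CPM (SD, n = 3), a log2 fold change of -0.64 (SE 0.257). Without CFIm25 KO 1, the clone nearest to the controls, the log2 fold change was -0.98. It was -0.51 without CFIm25 KO 2 and -0.48 without CFIm25 KO 3. In these bulk libraries, fewer cells that express a gene and less RNA per cell cannot be told apart.

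For FGF2 and SFRP2 the edited clones lay wholly below the controls, as they did for 12.4% of the 11841 genes. This count comes from the values that chose the genes, so nothing is read from it.

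**Figure D1:**
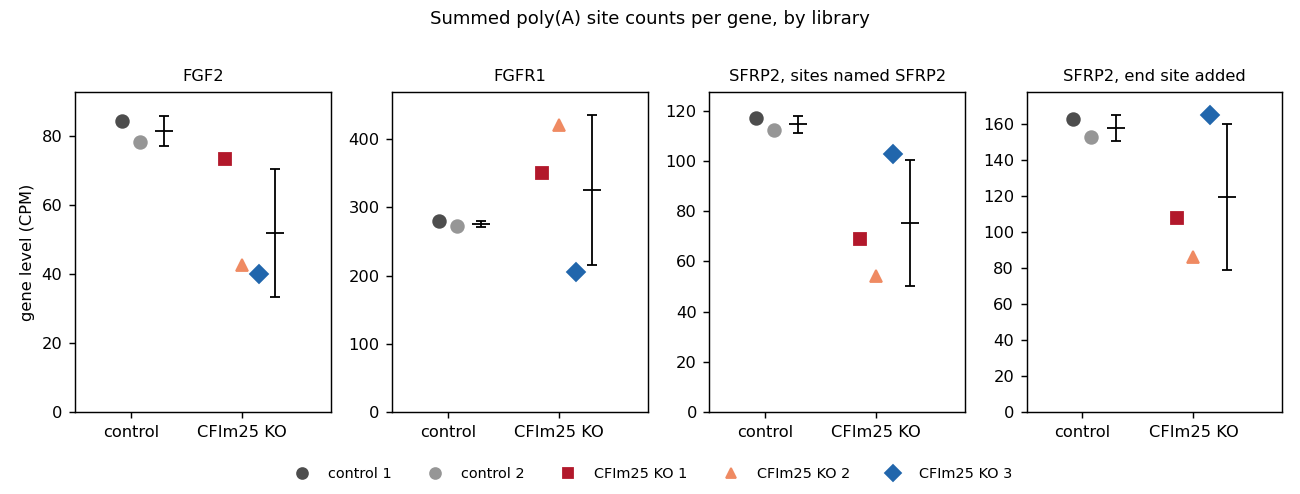
Gene level in CPM (y axis, from 0) of FGF2, FGFR1 and SFRP2 in the control and CFIm25 KO libraries. Each point is 1 library, and the bars beside them are the mean ± SD of the 2 or 3 libraries. For SFRP2 the level is drawn from the sites named SFRP2 and again with the site at the gene end added, where CFIm25 KO 3, at 164.6 CPM, lies above both controls.

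The 5 sites of FGF2 all lie in its 3' UTR, in the last exon, 5741, 5662, 4879, 2773 and 13 bases before the gene end. Site 1, the most proximal, and site 5, at the gene end, carried most of the reads. A transcript that ends at site 1 lacks 5728 bases of the 3' UTR that one ending at site 5 holds. The share of FGF2 reads at site 1 was 54.8% and 59.4% in control and 48.3%, 41.9% and 53.8% in CFIm25 KO. All edited clones were lower than both controls, but CFIm25 KO 3 by only a small margin: the 95% Wilson intervals were 46.8 to 60.6% in that clone and 49.9 to 59.6% in control 1. The interval and the floor of a share cover counting error only, since reads carry no molecular identifiers. The share at site 5 was 33.6% and 30.8% in control and 33.7%, 36.9% and 29.1% in CFIm25 KO, and here the groups overlapped.

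Between the main sites, sites 3 and 4 took a larger share of the FGF2 reads in every edited clone. Site 4 had 4.94% and 5.18% in control (20 and 19 reads) and 8.81%, 8.08% and 8.54% in CFIm25 KO (46, 21 and 17 reads). The clones of each group lay close together, at 5.06 ± 0.169% in control (SD, n = 2) and 8.48 ± 0.372% in CFIm25 KO (SD, n = 3). The counting error is wider than this spread: the 95% Wilson interval was 3.22 to 7.50% in control 1 and 5.40 to 13.3% in CFIm25 KO 3. Site 3 had 1.23% and 1.63% in control (5 and 6 reads) and 3.26%, 4.62% and 5.53% in CFIm25 KO (17, 12 and 11 reads). Scaled to the reads of all sites, site 3 had 0.938 and 1.16 CPM in control and 2.16, 1.79 and 1.99 CPM in CFIm25 KO. The level of the gene as a whole was lower in every edited clone. Both levels come from the contrast that chose the gene. Site 2, which lies 79 bases after site 1, had between 3.00 and 8.46% with overlapping groups.

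Thus 3 of the 5 shares did not overlap between the groups, 2 higher and 1 lower in CFIm25 KO. Among 18109 sites of genes with several sites, 13.9% were higher and 13.9% lower in every edited clone. An exact permutation test of the share (two-sided) gave p = 0.1 for sites 3 and 4, the smallest that 2 against 3 libraries can give, and p = 0.2 for site 1. The model with a term for each library compared a site with the rest of its gene, so that a change common to all its sites drops out. The site reads still sum to the level that chose FGF2 and FGFR1. The permutation, usage and pair p-values of both genes are thus not independent of that choice. The model gave a shift of 0.80 for site 4 on the log2 scale (SE 0.314, edgeR unadjusted p = 0.0188, adjusted p = 0.349) and of -0.54 for site 1 (SE 0.264, edgeR adjusted p = 0.479). Site 2 shifted by 0.51 (edgeR adjusted p = 0.714) and site 5 by 0.08 (edgeR adjusted p = 0.952), while site 3 held too small a share of the gene to be tested. None of the 5 FGF2 and FGFR1 sites tested was called, beside 0.0875% of 11435 sites, and 1 had an unadjusted p under 0.05, beside 10.7% of those sites.

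The direct comparison of FGF2 site 1 with site 5 gave no call either. There were 1.63 and 1.93 reads at site 1 for each read at site 5 in control, and 1.43, 1.14 and 1.84 in CFIm25 KO. The groups overlapped, since CFIm25 KO 3 lay between the controls. The shift was -0.31 on the log2 scale (SE 0.275, 95% interval -0.87 to 0.25, edgeR adjusted p = 0.749). Of 3767 pairs of 3' UTR sites, 0.557% were called, 16 toward the distal and 5 toward the proximal site. Neither of the 2 pairs of FGF2 and FGFR1 was called or had an unadjusted p under 0.05.

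FGF2 overlaps NUDT6, a gene on the opposite strand whose RNA is a known antisense partner of FGF2. Its 1 site in the table, annotated as intronic, lay at 122912547 on the minus strand and held 12 and 17 control reads against 18, 20 and 12 from CFIm25 KO. In CPM this was 2.50 and 3.63 against 2.53, 3.28 and 2.41, with overlapping groups (edgeR adjusted p = 0.967 for a log2 fold change of -0.16, SE 0.422). The sites are assigned by strand in the table. The NUDT6 site lies 19970 bases before the NUDT6 end and outside FGF2, whose site 5 at 122898223 is 13 bases before the FGF2 end. A minus-strand transcript that ends at this site does not reach FGF2. These reads therefore do not measure the antisense RNA that overlaps FGF2, which had no site in the table.

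FGFR1, the receptor, had no common direction in the edited clones. Its level was 279.3 and 273.0 CPM in control (1340 and 1279 reads) and 350.5, 420.5 and 205.7 CPM in CFIm25 KO 1, 2 and 3 (2495, 2565 and 1023 reads). CFIm25 KO 1 and 2 were above both controls, at 126.9% and 152.3% of their mean, and CFIm25 KO 3 was below both, at 74.5%. The means were 276.2 ± 4.43 CPM (SD, n = 2) and 325.5 ± 109.6 CPM (SD, n = 3), with a log2 fold change of 0.24 (SE 0.315). Without CFIm25 KO 2 it was 0.01 and without CFIm25 KO 3 it was 0.48, so that its size rested on which clones were taken.

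FGFR1 lies on the minus strand of chromosome 8. One of its sites is intronic, 22602 bases before the gene end, and 6 lie in the 3' UTR within 1694 bases of it. Site 3, 1588 bases before the gene end, took 86.2% and 76.2% of the control reads, and in CFIm25 KO it took 81.0%, 83.7% and 74.0%. Its groups overlapped, with a usage shift of -0.16 (SE 0.311, 95% interval -0.84 to 0.51, edgeR adjusted p = 0.907). The main site therefore dominated in every library.

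Site 2 of FGFR1, 106 bases upstream of site 3, was all or nothing. It had 0 reads in control 1 and 0 in CFIm25 KO 2, but 55 in control 2, 114 in CFIm25 KO 1 and 52 in CFIm25 KO 3. Taken as 3 reads of the gene's total, a count of 0 allows a share of up to 0.224% in control 1 and 0.117% in CFIm25 KO 2 (upper 95% Wilson limits 0.286% and 0.150%), where the other libraries had 4.30 to 5.08%. The pattern crosses the groups, and the part of the clustering of read ends into sites was not tested. The share of sites 2 and 3 as a single site was 86.2% and 80.5% in control and 85.6%, 83.7% and 79.1% in CFIm25 KO, means of 83.3 ± 4.06% (SD, n = 2) and 82.8 ± 3.35% (SD, n = 3).

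The more distal FGFR1 sites 4 to 7, all within 480 bases of the gene end, held between 1.60 and 5.71% of the reads each, and the groups overlapped at every one. Site 3 had 20.3 and 13.3 reads for each read at site 5 in control and 18.9, 16.3 and 13.1 in CFIm25 KO. This pair shifted by -0.03 (SE 0.228, 95% interval -0.49 to 0.44, edgeR adjusted p = 0.984), and the sign turned without control 1 (0.27), without CFIm25 KO 3 (0.10) and with sites 2 and 3 merged (0.18). The intronic site 1 took 2.24% and 3.60% of the control reads, and in CFIm25 KO it took 3.57%, 3.82% and 5.77%, again with overlap. In site CPM, which is scaled to the reads of all sites, it had 5.63 and 8.89 in control and 11.3, 14.6 and 10.7 in CFIm25 KO, where the groups did not overlap. This level comes from the contrast that chose the genes.

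**Figure D2:**
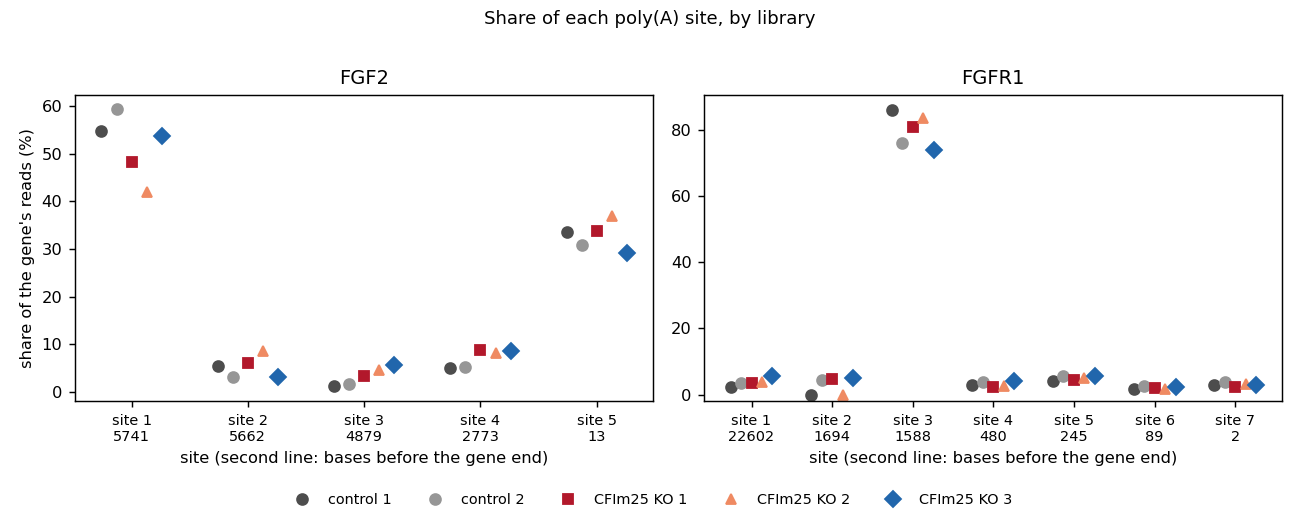
Share of the gene's reads in percent (y axis) at each poly(A) site of FGF2 and FGFR1, ordered from proximal to distal, with the distance of each site from the gene end in bases under its number. Each point is 1 library. At FGF2 the CFIm25 KO libraries sit above both controls at sites 3 and 4 and below them at site 1, and at FGFR1 site 2 there are 2 libraries at 0, 1 of each group.

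SFRP2, as named in the table, was lower in every CFIm25 KO library. Its level was 116.9 and 112.1 CPM in control (561 and 525 reads) and 68.8, 54.1 and 102.7 CPM in CFIm25 KO 1, 2 and 3 (490, 330 and 511 reads). The groups did not overlap, and CFIm25 KO 3 lay nearest to the controls, at 89.7% of their mean, with CFIm25 KO 1 at 60.1% and CFIm25 KO 2 at 47.2%. The means were 114.5 ± 3.44 CPM (SD, n = 2) and 75.2 ± 24.9 CPM (SD, n = 3), a log2 fold change of -0.61 (SE 0.246). Without CFIm25 KO 3 the log2 fold change was -0.90, without CFIm25 KO 1 it was -0.55 and without CFIm25 KO 2 it was -0.42. Nearly all of these reads came from site 3 in the 3' UTR. The intronic site 1 had 5 to 13 reads and site 2, annotated as exon, 3 to 14 reads in a library.

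The SFRP2 level depends on a site that the table assigns to no gene. At 153780592 on the minus strand, 1 base from the RefSeq end of SFRP2 and 586 bases after site 3, lay a site with no gene name, here called SFRP2 site 4. The controls gave it 220 and 190 reads, and CFIm25 KO 1, 2 and 3 gave it 279, 196 and 308. It is the only site without a gene that fell on any of the 3 genes. In the table as a whole, 5086 sites had no gene and 963 of them could be assigned to 1 RefSeq gene on their strand. SFRP2 site 4 is not a member by the gene name and its reads were not in the level that chose SFRP2, so its level was tested. The site was taken up after the data were seen and lies at the end of the same gene, so this test is not fully independent of the choice.

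SFRP2 site 4 showed no difference that the test could separate from the spread between clones. In site CPM it had 41.3 and 36.7 in control and 35.5, 29.2 and 55.6 in CFIm25 KO, with CFIm25 KO 1 and 2 below both controls and CFIm25 KO 3 above them. The log2 fold change was 0.03 (SE 0.251, 95% interval -0.53 to 0.60, edgeR adjusted p = 0.990). Without CFIm25 KO 3 it was -0.27 and without control 2 it was -0.05. Site 3 on the same scale had 102.8 and 99.2 in control and 60.1, 47.5 and 87.4 in CFIm25 KO, which did not overlap (log2 fold change -0.64, SE 0.224, as a description). With site 4 added, the gene level of SFRP2 was 162.8 and 152.6 CPM in control and 108.0, 86.2 and 164.6 CPM in CFIm25 KO. The groups now overlapped: CFIm25 KO 3 reached 104.4% of the control mean, and CFIm25 KO 1 and 2 stood at 68.5% and 54.7%. The means were 157.7 ± 7.18 CPM (SD, n = 2) and 119.6 ± 40.5 CPM (SD, n = 3), and the log2 fold change was -0.40 (SE 0.261).

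The balance between the proximal and the distal site of SFRP2 was alike in all edited clones, unlike its level. There were 2.49 and 2.70 reads at site 3 for each read at site 4 in control, and 1.70, 1.63 and 1.57 in CFIm25 KO. The groups did not overlap and both were narrow, at 2.60 ± 0.148 (SD, n = 2) and 1.63 ± 0.0620 (SD, n = 3). The share of site 4 in the SFRP2 reads was 28.2% and 26.6% in control and 36.3%, 37.3% and 37.6% in CFIm25 KO (95% Wilson intervals for counting error 25.1 to 31.4% in control 1 and 33.0 to 39.7% in CFIm25 KO 1). The counting error is thus wider than the spread within either group, so the narrowness is not read as a trait of the clones. The shift was -0.67 on the log2 scale (SE 0.213), toward the distal site. The ratio holds the site 3 reads that chose the gene, so it has no p-value here.

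SFRP2 does not stand alone in this direction. With end sites assigned in this way, 4033 pairs could be compared, and SFRP2 was number 548 from the most distal shift. The median shift of all pairs was -0.09, and 0.694% were called, 20 toward the distal and 8 toward the proximal site. The proximal site had fewer reads per distal read in every edited clone in 18.7% of 4031 pairs with reads in all libraries.

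**Figure D3:**
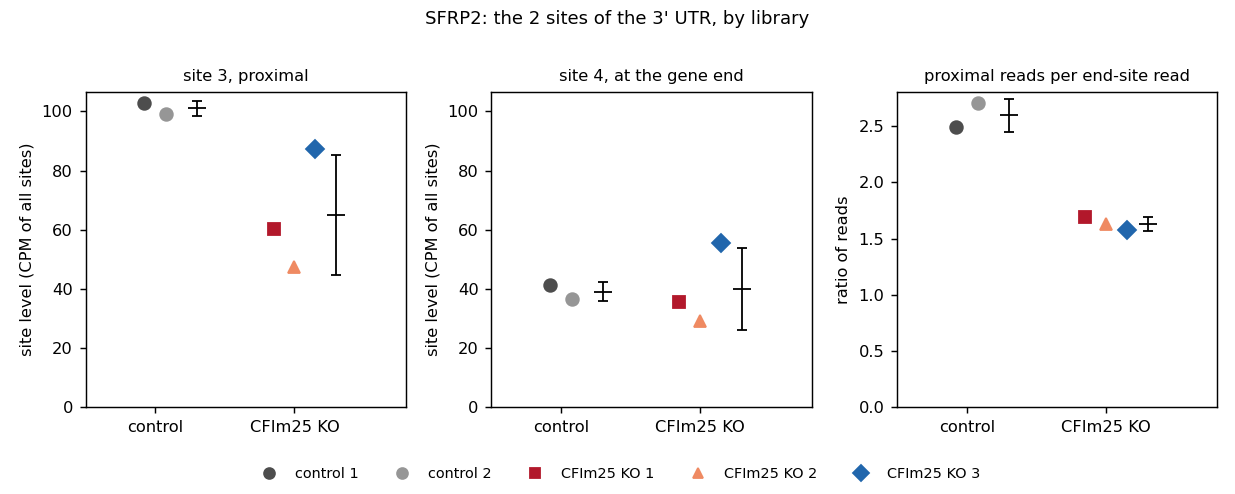
SFRP2 site 3 and the unnamed site 4 at the gene end, in CPM scaled to the reads of all sites (left and middle, same scale), and the ratio of their reads (right). Points are libraries, and bars are the mean ± SD of 2 control and 3 CFIm25 KO libraries. The site levels spread widely among the edited clones, while the ratio lies between 1.57 and 1.70 in all 3, below 2.49 and 2.70 in control.

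The 3 genes ordered the edited clones differently. Relative to the control mean, FGF2 was nearest to control in CFIm25 KO 1, SFRP2 in CFIm25 KO 3, and FGFR1 was highest in CFIm25 KO 2, the clone in which SFRP2 was lowest. The likeness of their profiles over the 5 libraries was measured as the root mean square difference of centred log2 CPM. It was 0.469 between FGF2 and SFRP2, 0.561 between FGF2 and FGFR1 and 0.751 between FGFR1 and SFRP2.

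The closest profiles to each of the 3 were searched for among the 8247 genes whose log2 CPM averaged 3 or more. A search this wide favours close profiles, so nothing is read from their being closer than the other 2 genes. FGF2 was closest to NPIPB4 (0.0487), RGPD5 (0.0788) and CERS2 (0.0901), of which NPIPB4 and RGPD5 belong to families of near-identical copies whose reads are uncertain. CERS2, a ceramide synthase, had 57.1 and 58.1 CPM in control and 57.3, 31.3 and 32.6 CPM in CFIm25 KO, with the same high CFIm25 KO 1 as FGF2. FGFR1 was closest to WDR76 (0.0352), PCOLCE2 (0.0514) and MSI2 (0.0595). MSI2, an RNA-binding protein of stem cells, had 47.7 and 49.1 CPM in control and 64.3, 70.5 and 33.8 CPM in CFIm25 KO. SFRP2 was closest to KNDC1 (0.0647), GCNT4 (0.0797) and HLA-B (0.0965), an HLA gene whose reads may be shared with its relatives. KNDC1 had 22.9 and 22.0 CPM in control and 14.0, 9.67 and 18.9 CPM in CFIm25 KO, low in CFIm25 KO 2 as SFRP2 was.

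The other genes of the FGF and WNT pathways gave no call. Of 154 genes listed, 91 had a site in the table and 86 were tested, and edgeR and DESeq2 called 0 of them. The median log2 fold change was 0.11, beside 0.01 over all genes tested, with 55 above and 31 below 0. An unadjusted p under 0.05 was found for 5 of them, beside 7.13% of all genes. Without CFIm25 KO 3 there were 2 calls, EGR1, an immediate early transcription factor, and GPC4, a heparan sulfate proteoglycan, both higher (log2 fold change 1.37 and 1.36), beside 1.03% of the 11888 genes tested in that fit. The clone left out lay the other way. EGR1 had 86.3 and 89.9 CPM in control, 223.2 and 231.0 CPM in CFIm25 KO 1 and 2 and 28.1 CPM in CFIm25 KO 3. GPC4 had 104.8 and 97.1 CPM in control, 222.1 and 295.9 CPM in CFIm25 KO 1 and 2 and 96.7 CPM in CFIm25 KO 3, just below both controls.

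Of the ligands and receptors, 4 of the 21 other FGF genes were tested, with a median of -0.37 (0 called). FGF13, an intracellular relative of the secreted FGFs, had the most reads of those named by the rule, with 28.6 and 22.8 CPM in control and 21.1, 9.34 and 26.5 CPM in CFIm25 KO (edgeR adjusted p = 0.888). FGF11 had 6.25 and 6.62 CPM in control and 8.01, 10.2 and 9.25 CPM in CFIm25 KO, higher in all edited clones but with 30 to 62 reads (edgeR adjusted p = 0.766). FGF12 lay lower in all, with 8 to 15 reads. All 4 of the other receptors tested had a log2 fold change above 0, with a median of 0.22 and 0 called. FGFR2 had 24.2 and 20.7 CPM in control and 25.1, 28.2 and 22.7 CPM in CFIm25 KO. FGFR3 was highest in CFIm25 KO 2, at 59.8 CPM, and lowest in CFIm25 KO 3, at 20.7 CPM, the same clones as for FGFR1. FGFRL1, a receptor without a kinase domain, had 5.21 and 11.1 CPM in control and 12.6, 8.52 and 10.5 CPM in CFIm25 KO. Of 14 heparan sulfate proteoglycans and enzymes, 8 were above and 6 below 0 (0 called), with NDST1, a sulfotransferase of these chains, at 73.0 and 86.0 CPM in control and 92.4, 118.7 and 89.1 CPM in CFIm25 KO (edgeR adjusted p = 0.700). The proteoglycans SDC4 and GPC6 had log2 fold changes of -0.33 and 0.59 (edgeR adjusted p = 0.762 and 0.794).

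In the relay from receptor to ERK, 8 of 19 genes were above and 11 below 0, with a median of -0.04 and 0 called. GRB2, the adaptor between receptor and RAS, had 13.5 and 15.8 CPM in control and 9.27, 9.02 and 12.1 CPM in CFIm25 KO (log2 fold change -0.54, edgeR adjusted p = 0.668). ARAF, a kinase of the relay, lay the other way, at 16.7 and 15.6 CPM in control and 20.2, 19.0 and 27.1 CPM in CFIm25 KO (edgeR adjusted p = 0.698). Among the genes that ERK signalling induces or that feed back on it, 14 of 18 were above 0, with a median of 0.23 and 0 called. PHLDA1 had 43.1 and 47.6 CPM in control and 71.1, 65.6 and 55.5 CPM in CFIm25 KO, a log2 fold change of 0.50 (SE 0.155, edgeR adjusted p = 0.519). MYC had 4.79 and 4.48 CPM in control and 8.85, 5.74 and 8.04 CPM in CFIm25 KO, from 21 to 63 reads (edgeR adjusted p = 0.694). ETV1, an ETS transcription factor, was at 16.1 and 17.7 CPM in control and 12.4, 9.67 and 14.7 CPM in CFIm25 KO (edgeR adjusted p = 0.718).

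Beside SFRP2, the secreted WNT antagonists had only 2 genes to test, of 11 listed. SFRP1, a member of the same family as SFRP2, had 146.5 and 141.1 CPM in control and 184.2, 316.4 and 83.8 CPM in CFIm25 KO, a log2 fold change of 0.44 (SE 0.667, edgeR adjusted p = 0.939). It was highest in CFIm25 KO 2 and lowest in CFIm25 KO 3, the opposite order to SFRP2. FRZB, also of this family, had 6, 5, 17 and 4 reads in control 1, control 2, CFIm25 KO 1 and CFIm25 KO 3 but 222 in CFIm25 KO 2, or 36.4 CPM there (edgeR adjusted p = 0.863). No WNT ligand of the 19 listed had a site in the table, which holds only sites with a summed RPM of at least 5. Of the WNT receptors 6 of 10, of the relay 7 of 9 and of the response genes 5 of 6 were above 0, with 0 called in each. FZD5, a Frizzled receptor, had 50.9 and 46.5 CPM in control and 44.4, 104.3 and 51.3 CPM in CFIm25 KO, high in CFIm25 KO 2 alone, while FZD6 and RYK had edgeR adjusted p of 0.874 and 0.919. TCF7L2, a transcription factor at the end of the pathway, had 82.8 and 78.6 CPM in control and 117.0, 117.2 and 84.4 CPM in CFIm25 KO (edgeR adjusted p = 0.639). DVL3 and DVL1, adaptors below the receptors, had log2 fold changes of 0.27 and 0.21 (edgeR adjusted p = 0.698 and 0.794). Of the response genes, ZNRF3, which removes WNT receptors, had 5 reads in each control and 16, 13 and 13 in the edited clones (edgeR adjusted p = 0.718), AXIN2 had 30, 15, 34, 17 and 14 reads, and LGR4 had a log2 fold change of 0.18 (edgeR adjusted p = 0.928).

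**Figure D4:**
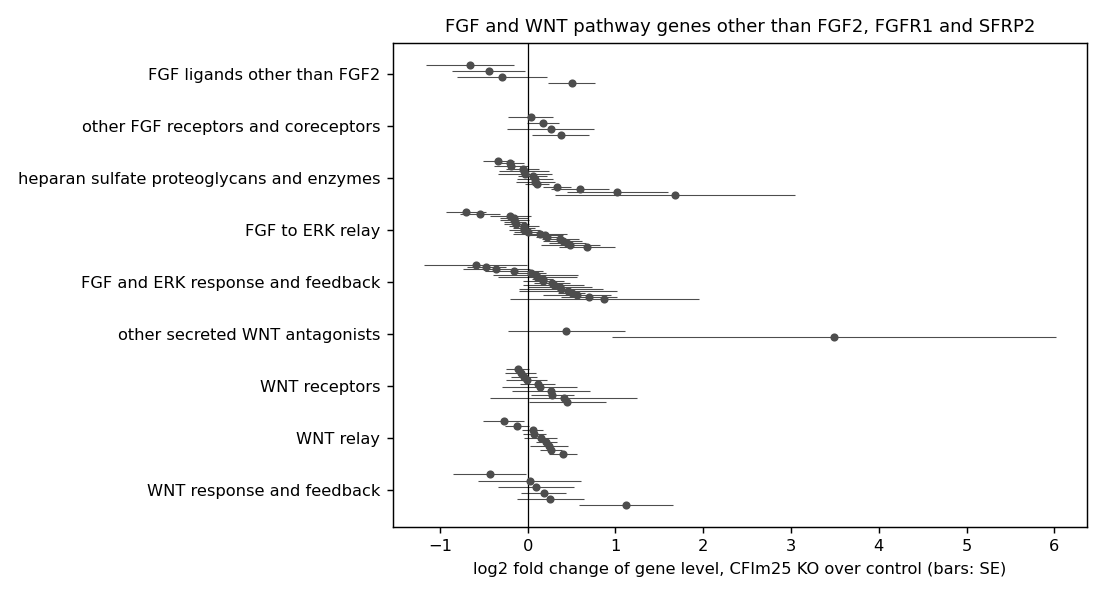
Log2 fold change of gene level, CFIm25 KO over control (x axis), for the 86 tested genes of 9 FGF and WNT lists (rows), each point a gene and each bar its SE. Most points lie within 1 of 0, and FRZB, at 3.49 with an SE of 2.53, rests on CFIm25 KO 2.

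Markers of other cell types varied between the edited clones as well. The markers of pluripotent cells were present: POU5F1 had 174.1 and 202.4 CPM in control and 214.5, 208.4 and 199.2 CPM in CFIm25 KO, SOX2 had 66.5 to 86.9 CPM and NANOG 3.93 to 7.64 CPM over the 5 libraries, with overlapping groups for each. Of 14 such markers 1 was called, ZFP42, which was lower, at 8.75 and 9.39 CPM in control and 0, 0 and 0.201 CPM in CFIm25 KO (edgeR adjusted p = 0.000824). Neural and ectodermal markers, of which 5 of 11 had a site, summed to 209.5 and 177.6 CPM in control and 270.3, 501.0 and 231.8 CPM in CFIm25 KO, and PAX6 and SOX1 had no row. The sum was highest in CFIm25 KO 2, where FGFR1 was highest and SFRP2 lowest. NES, a neural filament gene, was nearly level over the edited clones, at 91.0, 91.8 and 98.5 CPM against 77.1 and 67.9 CPM in control. The transcription factors SIX3 (5.90, 116.2 and 1.21 CPM), OTX2 (47.6, 137.1 and 11.5 CPM) and ZIC2 (78.8, 94.8 and 36.0 CPM) had their highest values in CFIm25 KO 2. TUBB3, the remaining marker with a site, was highest in CFIm25 KO 3 (46.9, 61.1 and 84.6 CPM, against 54.8 and 51.0 CPM in control). In control SIX3 had 0.834 and 1.07 CPM, OTX2 27.5 and 23.5 CPM and ZIC2 49.2 and 34.2 CPM, so OTX2 in CFIm25 KO 3 lay below both controls. Mesodermal markers, 2 of 8 with a site, summed to 35.2 and 35.4 CPM against 20.4, 14.8 and 41.6 CPM, mostly KDR, and TBXT and MIXL1 had no row. Fibroblast and feeder markers, 3 of 7 with a site, summed to 158.0 and 168.4 CPM against 130.4, 94.1 and 224.1 CPM, mostly THY1, which stem cells also express. The sums of both lists followed the order of SFRP2 among the edited clones, lowest in CFIm25 KO 2 and highest in CFIm25 KO 3. So did the sum of the trophoblast list (39.2 and 38.6 against 36.5, 23.8 and 60.1 CPM, mostly TFAP2C). The other members with a site did not follow this order. PDGFRA (1.12, 3.28 and 4.62 CPM), COL1A1 (12.2, 15.9 and 17.1 CPM) and COL1A2 (15.3, 18.4 and 22.1 CPM) were lowest in CFIm25 KO 1. KRT7 was lowest in CFIm25 KO 3 (3.65, 4.10 and 1.01 CPM). The endodermal list held only AFP, at 1.83 to 4.82 CPM. The part of these differences in the levels of FGF2, FGFR1 and SFRP2 was not tested.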

How the data were processed

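Poly(A)+ RNA libraries were made by the authors with the QuantSeq Rev 3' kit. Reads were reverse complemented and aligned by Bowtie2, each read's 3' end was read as a cleavage position, ends from internal priming were dropped, and the others were grouped into sites. The deposited table holds the raw read count of each site and library and RPM values, which the authors obtained by dividing by a library total, and their sum as a score. It also holds the authors' ratio of group means (fold change) and p-value per site, which were not used. The labels name hg19, but their gene was within 5000 bp for 98.85% of 22974 sites in GRCh38 and for 12.44% of 23169 in GRCh37, so positions are GRCh38. Sites with no gene name (9.78 to 10.8% of reads) stayed out of gene sums. In a variant chosen after seeing the data, those within 1 RefSeq gene or up to 100 bp past its end were added. No library duplicated another (chi-square per degree of freedom 4.95 to 17.3 within groups).

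Tests on counts used the robust, two-sided quasi-likelihood F test of edgeR 4.0.16 (R 4.3.3, TMM, filterByExpr, no covariate, Benjamini-Hochberg over the whole table, threshold 0.05), with SE taken from the fold change and F. Usage compared a site with the rest of its gene, and pairs the 2 3' UTR sites with most reads, each with at least 5% and 25 reads, with a term for each library. Intervals are 95%. The code was tested on simulated data. Alternatives were DESeq2 1.42.0, other scalings, filters and thresholds, merged or added sites, a replicate block and leaving out each library. The genes, lists and tests were chosen with earlier results of these data known. The genes named were the 3 genes and their sites, NUDT21, NUDT6, the called genes and up to 3 of smallest p in each pathway list, the 3 genes of most similar profile, POU5F1, SOX2, NANOG and the most abundant marker of each other list. One gene that this rule names is not reported here. EGR1, GPC4, ZFP42, SIX3, OTX2, ZIC2, TUBB3, PDGFRA, COL1A1, COL1A2 and KRT7 were named after their values were seen. Figures were drawn with matplotlib 3.10.9.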

Additional observations from a re-analysis of the deposited data

How the results depend on the processing

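Every alternative run kept the sign of the gene level differences of FGF2, SFRP2 and FGFR1, which is no test, since these values chose the genes. The log2 fold changes were -0.98 to -0.48, -0.90 to -0.42 and 0.01 to 0.48 when 1 library was left out. For FGFR1 the kept sign is no common direction, since its edited clones lay on both sides of the controls. The shifts at FGF2 sites 1 and 4 and of the FGF2 pair also kept their sign, with no call. Over all features, leaving out 1 library gave 2 to 123 called genes (7 with all), 29 to 329 called sites (25), 5 to 68 sites called for usage (10) and 5 to 67 called pairs (21). The highest of each came without CFIm25 KO 3. The pathway genes called were 0 to 2, and of the 3 genes, which these values chose, 0 to 1 was called (SFRP2), so this count is no test. The SFRP2 pair shift with the end site was -0.73 to -0.61, the FGFR1 pair shift -0.34 to 0.27 and the level of the SFRP2 end site -0.27 to 0.22, the last 2 with no call under any alternative.

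Library totals gave 11 called genes and -0.0012 for the SFRP2 end site, and the DESeq2 test 26 called genes. A minimum share of 10% gave 19 sites called for usage, and a fit with no library term 2 sites and 0 pairs. With neighbouring sites merged, 42 sites and 40 pairs were called and the FGFR1 pair shift was 0.18, and with end sites added as well 55 sites, 58 pairs and 0.19, both chosen after seeing the data. The cause of these changes was not tested.

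The replicate numbers do not pair the clones by any label, and the deviations of same-numbered libraries correlated by only 0.0618 and 0.0376. In the fit with the replicate block, CFIm25 KO 3 has no partner and drops out of the contrast. This fit called 634 of 11841 genes, 624 sites, 78 sites for usage, 163 pairs and 7 of 86 pathway genes. It also called 3 of the 3 genes, which these values chose, so this count is no test. The same fit gave -0.27 for the SFRP2 end site and 0.10 for the FGFR1 pair. Sites with under 25 reads, such as FGF2 site 3 in every library, are limited by depth.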
